A study of Mus musculus with 6 samples.

Results

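The expressed Zfp genes of CT26 cells, a mouse colon carcinoma line, are described here in cells carrying a guide RNA against Cdk10 (sgCdk10, 3 libraries) and in cells carrying a control guide (sgControl, 3 libraries). Cdk10 encodes cyclin-dependent kinase 10, and the title of the study ties it to nucleic acid sensors and antitumor immunity. Total RNA was sequenced and deposited as a table of counts per gene. Members were the genes whose symbol is Zfp followed by a number alone, except Zfp36, and were chosen by their level, a mean of at least 1 CPM (counts scaled by the library total) over the 6 libraries. The pattern found 374 symbols among 57010 identifiers. Zfp36, which encodes a CCCH protein that promotes mRNA decay and is no relative of the others, was set aside, 97 symbols lay under the floor and 276 were members. The 3 members nearest the floor were Zfp551, Zfp992 and Zfp296, at 1.14, 1.26 and 1.28 CPM. The 3 symbols nearest below it were Zfp988, Zfp981 and Zfp667, at 0.996, 0.969 and 0.902 CPM. Of the 97 symbols under the floor, 36 had no count in any library.

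Zfp genes encode C2H2 zinc finger proteins, in which each finger is a short fold held together by a zinc ion and arrays of fingers read DNA or bind RNA. The largest subfamily carries a KRAB box, which recruits the co-repressor TRIM28. TRIM28 in turn brings the histone methyltransferase SETDB1 and HP1 proteins, so that the bound DNA, often a retroelement, is packed into silent chromatin. Genes of this subfamily arose by tandem duplication and lie in clusters. Members without a KRAB box include activators, subunits of chromatin complexes and proteins that act on RNA or the ribosome.

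Total counts were 17532202 to 19258309 per library, and the 276 genes held 0.767 to 0.786% of them. Cdk10 itself had 11.3, 12.9 and 10.5 CPM in sgCdk10 and 21.5, 19.5 and 20.1 CPM in sgControl, and its log2 fold change was -0.82 (SE 0.08, adjusted p = 8.4e-09 in edgeR). The guide sequence, the nuclease and whether the cells were 1 clone or a pool are not stated in the labels. A lower level in all cells and a level lost in some of them cannot be told apart in RNA from bulk cultures. Markers of other cells were low: the summed level of 6 leukocyte markers reached 0.226 CPM and that of 3 endothelial markers 0.110 CPM at most, and none of these 9 passed the count filter. Of 9 colon epithelial markers 3 were tested, Epcam had no count in any library, and the summed level was 58.0 to 59.4 CPM in sgCdk10 and 37.0 to 40.8 CPM in sgControl, nearly all of it from Krt18 and Krt20. Of 5 fibroblast-type markers 4 were tested, and their sum was 151 to 156 CPM in sgCdk10 and 123 to 140.4 CPM in sgControl. Single markers went both ways. By log2 fold change Krt18 (0.65) and Krt20 (0.51) were called higher and Muc2 (-0.93), under 1 CPM in every library, lower. Of the fibroblast-type markers Pdgfra (0.63) and Col1a1 (0.27) were called higher and Col3a1 (-0.41) lower, while Pdgfrb (0.10) was not called. The part of these 2 marker lists in the results below was not tested.

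A KRAB A box was found in the annotated protein of 168 members and none in 107, and 1 member, the pseudogene Zfp125, had no coding transcript. A SCAN box, a dimerisation domain, was found in 11 members, 6 of them with a KRAB box, and a BTB domain in 2. KRAB members had a median of 12 fingers and a median level of 10.7 CPM, whereas members without the box had 8 fingers and 33.1 CPM. Per kilobase of exon the medians were 2.47 and 6.49 CPM. The highest levels per kilobase were those of Zfp207 (45.3 CPM per kilobase), a spindle protein that binds BUB3, and Zfp598 (43.8 CPM per kilobase), a ubiquitin ligase that detects collided ribosomes. The lowest was 0.169 CPM per kilobase, in a KRAB member.

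The family moved little as a whole, and single genes moved in both directions. Of the 276 members 58 were higher and 40 lower in sgCdk10 by edgeR's quasi-likelihood test at an adjusted p of 0.05, and 178 were not called. The higher share was 21.0%, against 22.1% of the 13442 genes tested, and the lower share 14.5%, against 20.4%. In all, 35.5% of the members were called, against a background of 42.5%. The median log2 fold change of the members was 0.05, with quartiles of -0.09 and 0.17, and 157 were above 0, while the median over all tested genes was 0.00. The libraries of the groups did not overlap in 118 members (42.8%), against 51.3% of all tested genes. All members passed the count filter, and 0 of them had a mean under the floor in either group. Without sgControl replicate 3 the members called numbered 111, and without any other single library 77 to 86.

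**Figure D1:**
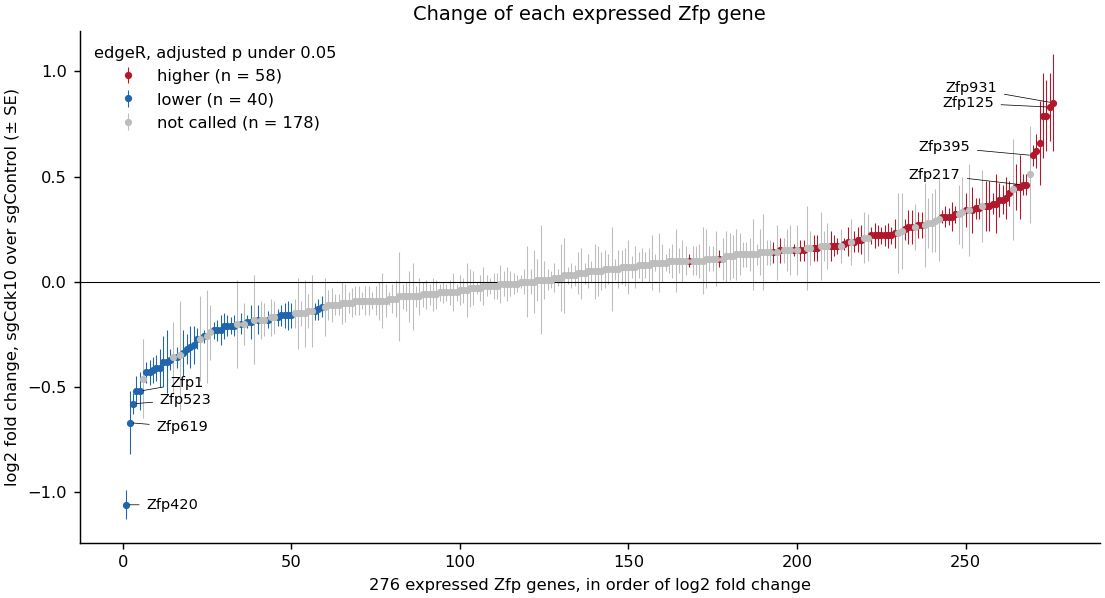
Log2 fold change (vertical axis, sgCdk10 over sgControl, with its standard error) of each of the 276 expressed Zfp genes in ascending order (horizontal axis), coloured by the edgeR call. The 58 genes called higher stand at the right and the 40 called lower at the left, with Zfp420 at -1.06 below all others and the median at 0.05.

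The balance between the directions depended on the processing. With the libraries corrected for GC content and for transcript length, 49 members were higher and 60 lower, so that 45% of the calls were higher, against 59.2% without it. Over all tested genes the same correction gave 2665 higher (19.8%) and 3222 lower (24.0%), or 45.3% of the calls higher against 52.0% without it, and moved the median by -0.02. Of the 98 called members 85 were called in the same direction with the correction and 0 in the other. With DESeq2 35 members were higher and 26 lower, or 22.1%, against a background of 31.1%.

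Summed over the 276 members, the level was 7840.3, 7848 and 7799.6 CPM in sgCdk10 and 7716, 7716 and 7766 CPM in sgControl. Every sgCdk10 sum was above every sgControl sum, with means of 7829 ± 25.9 and 7733 ± 28.8 CPM (SD, n = 3). Abundant genes weigh most in such sums, and Zfp106 alone had means of 385 CPM in sgCdk10 and 347 CPM in sgControl. The sums were not computed with the GC and length correction. For the KRAB members the sums overlapped, at 2741, 2772 and 2725 CPM in sgCdk10 and 2656, 2661 and 2733 CPM in sgControl.

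Of all tested genes 22.1% were higher and 20.4% lower, or 42.5%. Among the 168 KRAB members 33 were higher and 20 lower, or 31.5%, with a median log2 fold change of 0.08. Without sgCdk10 replicate 2 the higher ones numbered 21. Among the 107 members without the box 24 were higher and 20 lower, or 41.1%, with a median of -0.01. With the GC and length correction these counts were 28 and 25 for KRAB members (31.5%), and 20 and 35 for members without the box (51.4%). Of all tested genes 43.8% were then called, 19.8% higher and 24.0% lower. The difference between the classes was not tested. Of the 11 SCAN members 2 were higher and 2 lower, or 36.4%. The BTB members were Zfp131, which fell, and Zfp651, at -0.02.

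The share of members called followed their level. Between 1 and 5 CPM 7 of 47 members were higher and 1 lower, or 17%, against 21.9% of all tested genes at that level. Between 5 and 20 CPM 14 of 106 were higher and 14 lower, or 26.4% against 38.7%. Between 20 and 50 CPM 25 of 84 were higher and 17 lower, or 50% against 50.1%, and from 50 CPM upward 12 of 39 were higher and 8 lower, or 51.3% against 58.1%. KRAB members made up 123 of the 153 members under 20 CPM.

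**Figure D2:**
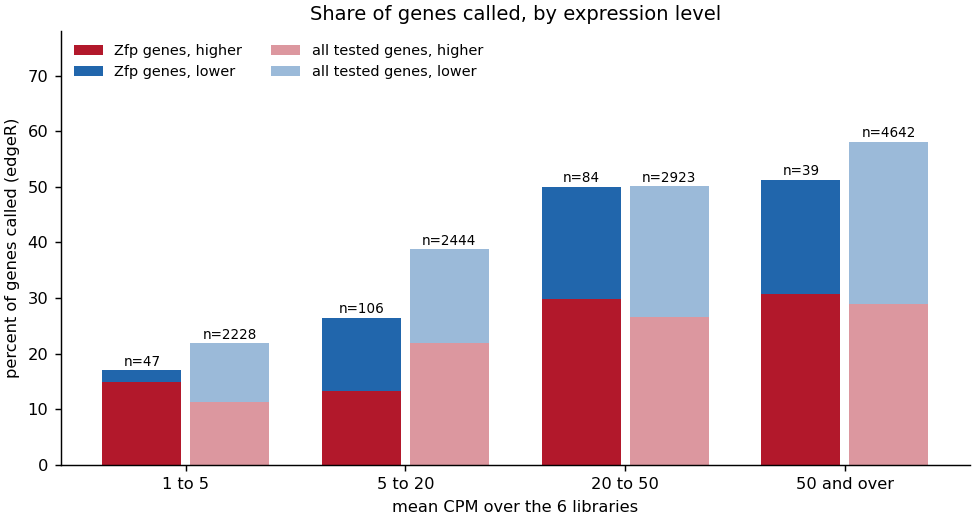
Percent of genes called higher (red) or lower (blue) in sgCdk10 (vertical axis) in 4 ranges of mean CPM (horizontal axis), for the Zfp genes (full colour) and for all tested genes (pale). The Zfp bars reach 17, 26.4, 50 and 51.3% against 21.9, 38.7, 50.1 and 58.1% for all tested genes.

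Most changes were small. Of the 98 called members 9 changed by at least 1.5-fold, or 3.26% of the 276, against 5.80% of all tested genes, and Zfp420 alone changed by 2-fold. The largest fall was that of Zfp420 (ENSMUSG00000058402), whose protein is an array of 19 fingers. Its level was 12.5, 12.5 and 13.1 CPM in sgCdk10 and 25.9, 28.3 and 25.6 CPM in sgControl. The groups stood far apart, and the log2 fold change was -1.06 (SE 0.07, adjusted p = 4.6e-12 in edgeR), and -1.09 to -1.01 under the alternatives. The human counterpart ZNF420 carries a KRAB box, whereas none was found in the annotated mouse coding transcript. Zfp420 has 4 exons on the plus strand of chromosome 7, from 29859979 to 29877292 on GRCm38, overlaps no exon of another gene and shares no stretch of 75 bases with another gene's transcript. Its RefSeq promoter window, chr7:29859762-29860061 on GRCm38.p6, is shown because this gene changed most. The window runs from 250 bases before the start to 50 after it, on the plus strand, and is in lower case throughout, since none of the motifs described further on matched it.
Zfp420: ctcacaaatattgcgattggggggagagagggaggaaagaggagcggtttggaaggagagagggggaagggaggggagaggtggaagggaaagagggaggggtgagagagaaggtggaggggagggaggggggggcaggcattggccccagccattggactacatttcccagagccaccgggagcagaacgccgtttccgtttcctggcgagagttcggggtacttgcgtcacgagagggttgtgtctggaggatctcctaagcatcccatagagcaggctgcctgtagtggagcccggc

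Other falls reached well-expressed genes with and without a KRAB box. Zfp523, the counterpart of human ZNF76 and a paralog of Zfp143, had 29.3, 28.5 and 28.6 CPM in sgCdk10 and 45, 44 and 39.9 CPM in sgControl (log2 fold change -0.58, SE 0.05; edgeR adjusted p = 5.0e-09). Zfp367, with 2 fingers, had 53.3, 59.1 and 57.7 CPM in sgCdk10 and 78.6, 72.1 and 77.8 CPM in sgControl, a fall of 0.43. Both genes kept the groups apart, and exons of both overlap a gene on the opposite strand. The KRAB gene Zfp788, with 23 fingers, had 13.8, 13.7 and 14.4 CPM in sgCdk10 and 18.1, 20.4 and 21.4 CPM in sgControl, a fall of 0.52. Zfp1 had 8.07, 8.48 and 8.78 CPM in sgCdk10 and 12.3, 12.2 and 12 CPM in sgControl, a fall of 0.52 as well. Zfp619, a KRAB gene with 33 fingers, was low throughout, at 3.42, 3.13 and 2.49 CPM in sgCdk10 and 4.86, 4.41 and 5.13 CPM in sgControl (log2 fold change -0.67, SE 0.15; edgeR adjusted p = 0.000891). Its libraries did not overlap between the groups. Zfp28 fell by 0.42 and Zfp202, whose human counterpart is a SCAN and KRAB repressor of lipid genes, by 0.41 (edgeR adjusted p = 3.2e-06 for Zfp28 and 0.00102 for Zfp202). Zfp639 fell by 0.36, at 35.8, 36.6 and 34.8 CPM in sgCdk10 and 45.6, 45.3 and 46.7 CPM in sgControl. Zfp773 fell by 0.38 (edgeR adjusted p = 0.0106; range over the alternatives 0.00753 to 0.0869), but DESeq2 did not call it (adjusted p = 0.0869).

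Of the 12 largest rises that kept the groups apart, the 3 with the highest levels were in members without a KRAB box. Zfp395, whose human counterpart is induced by hypoxia, had 56.1, 57.8 and 56.9 CPM in sgCdk10 and 38.7, 38.8 and 35.4 CPM in sgControl (log2 fold change 0.60, SE 0.05; edgeR adjusted p = 2.6e-10). Zfp217, counterpart of a human oncogene that binds co-repressors, had 62.2, 56.5 and 61.4 CPM in sgCdk10 and 43.1, 43.2 and 44.4 CPM in sgControl, a rise of 0.46. Zfp516, which acts in brown fat differentiation, had 37.1, 36 and 35.9 CPM in sgCdk10 and 27.6, 25.9 and 25.9 CPM in sgControl, likewise a rise of 0.46. In each of these genes the lowest sgCdk10 library was above the highest sgControl library. Zfp664 had 127, 121 and 126 CPM in sgCdk10 and 99.7, 101 and 102 CPM in sgControl, a rise of 0.31 (edgeR adjusted p = 5.4e-08). Zfp275 on the X chromosome had 79.5, 73.0 and 77.2 CPM in sgCdk10 and 59.7, 61.5 and 62.4 CPM in sgControl, a rise of 0.32.

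Rises in KRAB members were as large but mostly rested on fewer counts. Zfp950 had 27.9, 30.01 and 27.4 CPM in sgCdk10 and 20.7, 20.9 and 22.1 CPM in sgControl (log2 fold change 0.42, SE 0.06; edgeR adjusted p = 3.5e-06). Zfp184 had 3.04, 2.16 and 3.22 CPM in sgCdk10 and 1.47, 1.81 and 1.6 CPM in sgControl, a rise of 0.79. Zfp52 had 4.7, 3.3 and 4.1 CPM in sgCdk10 and 2.2, 2.32 and 2.48 CPM in sgControl, a rise of 0.79. These genes did not overlap between the groups, but a few counts move such values, and exons of Zfp184 and Zfp52 overlap a gene on the opposite strand. Zfp983 rose by 0.45 and Zfp235 by 0.40 (edgeR adjusted p = 0.00227 for Zfp983 and 0.00225 for Zfp235); exons of Zfp983 overlap those of CAAA01141682.1 on the same strand. Zfp712 rose by 0.66 in edgeR (adjusted p = 0.0106; range over the alternatives 0.00618 to 0.0905), but not with DESeq2 (adjusted p = 0.0905) or without sgControl replicate 1 (adjusted p = 0.0526). Zfp442 rose by 0.45 (adjusted p = 0.0192; range 0.0172 to 0.115), but not with DESeq2 (0.115), without sgControl replicate 3 (0.0694) or without sgCdk10 replicate 2 (0.108), and 21.7% of its 75-base stretches also occur in Zfp937 or another gene. The pseudogene Zfp125 had 4.31, 5.24 and 4.05 CPM in sgCdk10 and 2.48, 2.43 and 2.70 CPM in sgControl, a rise of 0.83 (edgeR adjusted p = 0.00015). Its exons overlap those of 3110053B16Rik on the same strand, so its counts are uncertain.

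**Figure D3:**
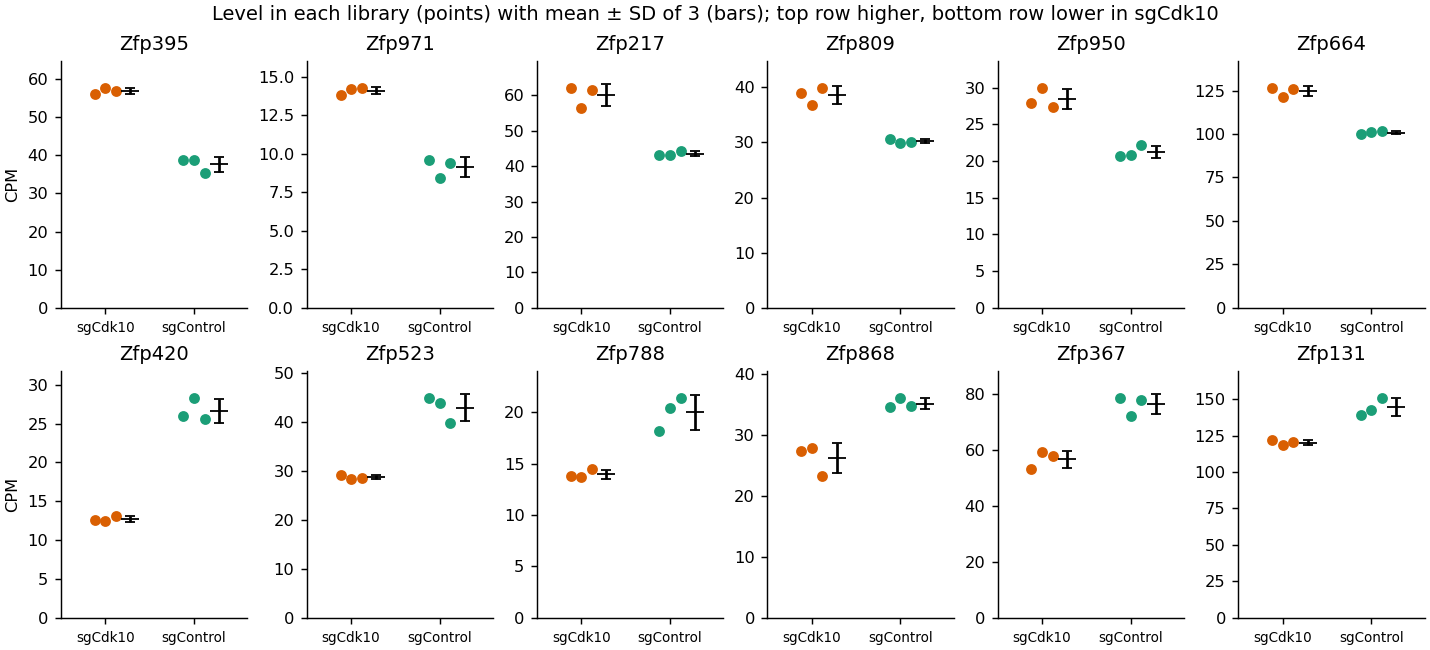
CPM in each library (points) with the mean and SD of 3 libraries (bars) for 12 Zfp genes, sgCdk10 left of sgControl, each axis starting at 0. The 6 genes of the top row were higher in every sgCdk10 library than in any sgControl library, and the 6 of the bottom row lower.

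The most abundant members changed by little or were not called. Zfp106, an RNA-binding protein, had 384, 383 and 389 CPM in sgCdk10 and 349, 344 and 349.7 CPM in sgControl, a rise of 0.15 (edgeR adjusted p = 6.4e-05), and of 0.06 with the GC and length correction. Zfp598 had 165, 162 and 161 CPM in sgCdk10 and 186, 184 and 168 CPM in sgControl, a fall of 0.14 (edgeR adjusted p = 0.0021), against -0.25 with that correction. Zfp207 had 299, 297 and 300.01 CPM in sgCdk10 and 302, 296 and 318 CPM in sgControl (log2 fold change -0.03; edgeR adjusted p = 0.414). The ranges of Zfp207 overlapped, and those of Zfp706 did too (edgeR adjusted p = 0.937). Zfp871, the most abundant KRAB member, had 172, 175 and 176 CPM in sgCdk10 and 160.4, 156 and 172 CPM in sgControl, a rise of 0.10 (edgeR adjusted p = 0.0215; range over the alternatives 5.3e-05 to 0.797). That call was lost with the GC and length correction (log2 fold change 0.01, adjusted p = 0.794), with DESeq2 (0.0683) and without sgControl replicate 1 (0.0744) or 2 (0.144) or sgCdk10 replicate 2 (0.0713) or 3 (0.0890).

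Genes known to guard imprints and silence retroelements were followed as a list of KRAB zinc fingers, of which 10 of 12 were members. In edgeR 4 were higher and 2 lower (60%, against 42.5% of all tested genes), with a median log2 fold change of 0.11. In DESeq2 1 was higher and 1 lower, where 31.1% of all tested genes were called. Zfp809, which silences murine leukaemia virus in embryonic cells, had 38.9, 36.8 and 40 CPM in sgCdk10 and 30.6, 29.9 and 30.1 CPM in sgControl (log2 fold change 0.35, SE 0.05; edgeR adjusted p = 5.0e-06). The groups did not overlap. Zfp57, which protects methylation at imprinted genes, had 44.1, 45.4 and 42.6 CPM in sgCdk10 and 39.1, 39.6 and 39.1 CPM in sgControl, a rise of 0.17 (edgeR adjusted p = 0.00608; range over the alternatives 0.00163 to 0.0559), not called by DESeq2 (0.0559). Zfp445, which acts on imprints together with Zfp57, rose by 0.11 (adjusted p = 0.0187; range 0.000297 to 0.132). That call was lost with DESeq2 (0.0875), with the GC and length correction (0.115, at a log2 fold change of 0.06) and without sgControl replicate 1 (0.0723) or 2 (0.109) or sgCdk10 replicate 1 (0.0841). Zfp932, a repressor of endogenous retroviruses, rose by 0.26 (adjusted p = 0.0116; range 0.00959 to 0.104), but not with DESeq2 (0.104) or without sgCdk10 replicate 3 (0.0676), and 32.6% of its 75-base stretches occur in Gm15446 or another gene. Zfp568, which represses a placental transcript of Igf2, fell by 0.17 at 55.7, 56.6 and 56.2 CPM in sgCdk10 and 62.3, 64.1 and 63.6 CPM in sgControl (edgeR adjusted p = 0.0013). Zfp90 fell by 0.31 (adjusted p = 0.00986; range 0.00197 to 0.0756), but not with DESeq2 (0.0756) or without sgControl replicate 1 (0.0607).

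Among 11 tested members that act on RNA or the ribosome 3 were higher and 3 lower (54.5%, against 42.5% of all tested genes). Zfp638, an RNA-binding protein, had 53.3, 58.2 and 52.9 CPM in sgCdk10 and 39.1, 42.9 and 44.8 CPM in sgControl, a rise of 0.37 (edgeR adjusted p = 3.7e-06). Zfp800 rose by 0.22 and Zfp106 by 0.15. Zfp346, which binds double-stranded RNA, had 34.3, 33.3 and 31.3 CPM in sgCdk10 and 43.0, 41.4 and 43.4 CPM in sgControl, a fall of 0.37. Zfp598 fell as given above. Zfp326, a subunit of a complex that couples elongation and splicing, fell by 0.13 (edgeR adjusted p = 0.0319; range over the alternatives 0.00552 to 0.140), a call lost with DESeq2 (0.140) and without any 1 of 5 libraries, all except sgControl replicate 1. Zfp622, which acts in maturation of the large ribosomal subunit, was at 0.06 (edgeR adjusted p = 0.302).

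Of 20 tested members of chromatin and transcription complexes 5 were higher and 5 lower (50%, against 42.5% of all tested genes). With the GC and length correction 4 were higher and 9 lower (65%, against 43.8% of all tested genes). Besides Zfp217, Zfp335, which works with a histone H3K4 methyltransferase complex, had 64.2, 66.1 and 68.5 CPM in sgCdk10 and 56.3, 54.9 and 49.3 CPM in sgControl, a rise of 0.31, and of 0.18 with the GC and length correction. Exons of its antisense partner Zfp335os, which fell by 0.86, and of Pcif1 overlap it on the opposite strand. Zfp609, a partner of the cohesin loader NIPBL, rose by 0.18 (edgeR adjusted p = 0.000172; range over the alternatives 1.0e-06 to 0.07), and Zfp451, a SUMO ligase, by 0.17 (edgeR adjusted p = 0.00116; range over the alternatives 0.000167 to 0.123); the GC and length correction ended the call of Zfp451 (0.105), and the correction with the replicate block that of Zfp609 (0.07), with log2 fold changes of 0.07 and 0.08 under the correction. Zfp143 rose by 0.15 (adjusted p = 0.0372; range 0.00559 to 0.190), not with DESeq2 (0.163) or limma-voom (0.0527), nor without sgControl replicate 1 (0.119) or 2 (0.109) or sgCdk10 replicate 1 (0.190) or 3 (0.120). Among the falls, the BTB member Zfp131 had 122, 118 and 120.4 CPM in sgCdk10 and 139, 143 and 151 CPM in sgControl, at -0.26 (edgeR adjusted p = 1.0e-06). Zfp91, an atypical ubiquitin ligase for the kinase NIK, fell by 0.23 with 107, 108 and 108 CPM in sgCdk10 and 125, 122 and 133 CPM in sgControl. Zfp384 fell by 0.19, Zfp64 by 0.21 and Zfp608 by 0.20. Exons of Zfp91 overlap those of Cntf on the same strand, and those of Zfp143, Zfp384 and Zfp608, like those of Zfp106, Zfp346, Zfp800, Zfp90, Zfp639 and Zfp712 named above, overlap a gene on the opposite strand.

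Of 15 genes listed for development and differentiation 8 were members, 5 higher and 2 lower (87.5%, against 42.5% of all tested genes). The counts were the same with the GC and length correction, where 43.8% of all tested genes were called. The median level of these 8 members was 63 CPM, and from 50 CPM upward 58.1% of all tested genes were called without the correction. Besides Zfp516, Zfp703, counterpart of a human luminal breast cancer oncogene, had 55.1, 54.8 and 59.2 CPM in sgCdk10 and 45.5, 47.1 and 40.4 CPM in sgControl, a rise of 0.35 (edgeR adjusted p = 1.1e-05). Zfp462, Zfp292 and Zfp318, which in B cells governs IgD expression, each rose by 0.22. With the GC and length correction the values were 0.12 for Zfp462, 0.14 for Zfp292, 0.11 for Zfp318 and 0.23 for Zfp703. Zfp367 and Zfp507 fell, by 0.43 and 0.18. Exons of Zfp703 and Zfp507 overlap a gene on the opposite strand. The lists hold few genes, and nothing is read from their counts beyond the genes named.

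The co-repressor machinery was followed in 39 tested partners. Of these 11 were higher and 8 lower (48.7%, against 42.5% of all tested genes), with a median of 0.00. The median level of the partners was 117 CPM, and from 50 CPM upward 58.1% of all tested genes were called. With the GC and length correction 11 of the partners were higher and 16 lower (69.2%, against 43.8% of all tested genes). Shares by level were not computed with the correction. Trim28 had 561, 563 and 546 CPM in sgCdk10 and 587, 584 and 557 CPM in sgControl, with overlapping groups (log2 fold change -0.05; edgeR adjusted p = 0.154), and Setdb1 was at -0.08 (edgeR adjusted p = 0.051). Both were called lower with the correction, at -0.15 for Trim28 and -0.12 for Setdb1. Chd4, the remodelling ATPase of the NuRD complex, had 545, 543 and 537 CPM in sgCdk10 and 457, 453 and 437 CPM in sgControl, a rise of 0.27 (edgeR adjusted p = 1.3e-08; 0.18 with the correction). Chd3, its paralog, rose by 0.20 (0.07 with the correction), Dnmt3a, a DNA methyltransferase, rose by 0.37, and Trim24 fell by 0.29.

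Genes of related families are named by their smallest p, not by the size of the change. Of 35 Zbtb genes, which join a BTB domain to zinc fingers, 11 were higher and 7 lower (51.4%, against 42.5% of all tested genes). Zbtb4, a reader of methylated DNA, had 24.7, 23.2 and 25.5 CPM in sgCdk10 and 12.3, 11.7 and 12.7 CPM in sgControl. Its rise was 1.00 (SE 0.07, adjusted p = 2.0e-11 in edgeR). Zbtb7b rose by 0.47, while Zbtb22 fell by 0.49 and Zbtb2 by 0.53; the log2 fold changes of the family ran from -0.53 to 2.04. Of 16 Zscan and Zkscan genes 5 were higher and 2 lower (43.8%, near the 42.5% of all tested genes). With DESeq2 1 of them was higher, where 31.1% of all tested genes were called in either direction. The log2 fold changes of these 16 genes ran from -0.37 to 1.03. Of 19 symbols with a letter after the number 3 were higher and 5 lower (42.1%, near the same 42.5%). Among them were Zfp607b at 1.34 and Zfp322a at 0.54, both higher, and Zfp512b, which fell by 0.43.

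Zfp genes lie close together, chiefly on chromosome 7 with 73 members, chromosome 17 with 37 and chromosome 13 with 24. Runs of at least 4 members with gaps of at most 250 kb were formed after the values had been seen, so they are described without a test. In a run on chromosome 8, from 69610857 to 69791178 on GRCm38, all 4 KRAB members had a negative log2 fold change. Zfp868 had 27.5, 27.9 and 23.4 CPM in sgCdk10 and 34.7, 36.2 and 34.8 CPM in sgControl, a fall of 0.43. Zfp869 had 31.0, 32.5 and 30.9 CPM in sgCdk10 and 38.9, 37.5 and 37.7 CPM in sgControl, a fall of 0.27. Zfp866 had 23.1, 22.7 and 21.6 CPM in sgCdk10 and 31.1, 28.2 and 30.4 CPM in sgControl, a fall of 0.41. These genes kept the groups apart, while Zfp963 between them, at 2.05 to 2.91 CPM in sgCdk10 and 2.03 to 3.73 CPM in sgControl, was not called (log2 fold change -0.20; edgeR adjusted p = 0.469), and its value was 0.03 without sgControl replicate 2. Exons of Zfp866 and Zfp963 overlap those of the predicted gene Gm20422 on the same strand, and 39.1% of the 75-base stretches of Zfp963 occur in Gm20422 or another gene.

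In a run on chromosome 6, from 47835661 to 48086593, 3 of 6 members were called lower and 0 higher. Of all tested genes 20.4% were lower and 22.1% higher. Zfp746 fell by 0.23 with 43.8, 42.7 and 43.4 CPM in sgCdk10 and 51.7, 53.4 and 47.3 CPM in sgControl (edgeR adjusted p = 0.000499). Zfp282, at -0.26 with the GC and length correction and -0.10 without sgControl replicate 2, and Zfp212 fell by 0.16 each, with adjusted p = 0.0261 and 0.0439 in edgeR. The ranges over the alternatives were 0.000184 to 0.204 for Zfp282 and 0.0136 to 0.204 for Zfp212. Zfp282 was not called by DESeq2 (0.107) nor without sgControl replicate 2 (0.204) or sgCdk10 replicate 2 (0.112) or 3 (0.0735). Zfp212 was not called by DESeq2 (0.204), without a filter on low counts (0.0913), with the replicate number as a block (0.0609) or without any 1 of 5 libraries, all except sgControl replicate 3.

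In several other runs all calls were rises, among them a run of 14 members on chromosome 13 with 2 higher and 0 lower. The 2 such runs with the most calls are described. Beside the counts of every run stand the shares of all tested genes, 22.1% higher and 20.4% lower, or 42.5% called. On chromosome 7, from 24081924 to 24515682, 8 of 8 members had a positive log2 fold change, the lowest that of Zfp111 at 0.01, which was -0.04 with the GC and length correction. Zfp94 also changed sign among the alternatives, with log2 fold changes of -0.04 to 0.21. Of the 8 members 3 were called: Zfp235, Zfp428 at 0.39 and Zfp93 at 0.36. Zfp428 had 16.6, 15.7 and 17.6 CPM in sgCdk10 and 12.5, 14.3 and 11.4 CPM in sgControl (edgeR adjusted p = 0.000493), and its exons overlap a gene on the opposite strand. Zfp93 (edgeR adjusted p = 0.0148; range over the alternatives 0.0129 to 0.0983) was not called by DESeq2 (0.0983) or without sgCdk10 replicate 2 (0.0771). On chromosome 17, from 21423227 to 22456689, 4 of 16 members were higher and 0 lower, where 22.1% of all tested genes were higher and 20.4% lower: Zfp54, Zfp53, Zfp52 and Zfp983, all among the 6 that come first in chromosome order. The run of 13 members that holds Zfp420 was mixed, with 1 higher and 4 lower, and Zfp420 stood apart from its neighbours, whose log2 fold changes ran from -0.34 to 0.22.

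**Figure D4:**
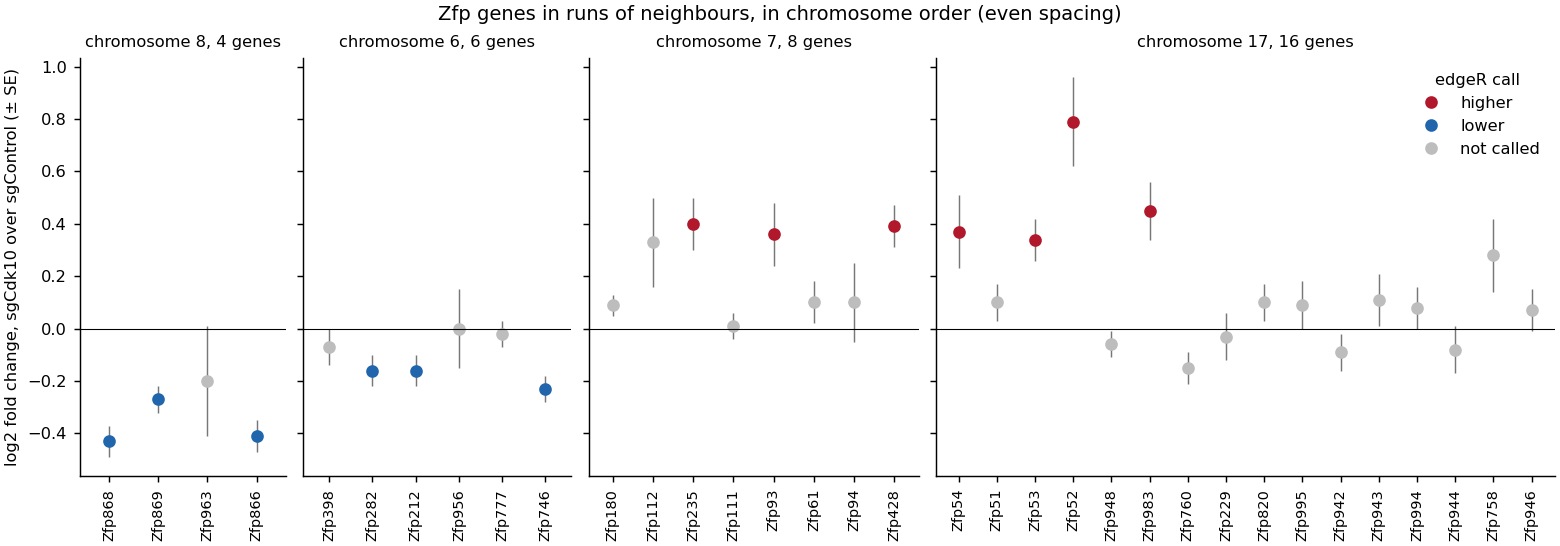
Log2 fold change with its standard error (vertical axis, sgCdk10 over sgControl) of the Zfp genes of 4 runs, in chromosome order with even spacing, coloured by the edgeR call. All 4 genes of the chromosome 8 run lie below 0 and all 8 of the chromosome 7 run above it, while the 16 of the chromosome 17 run lie on both sides.

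On chromosome 2 the KRAB genes Zfp971 and Zfp931 are neighbours. Zfp971 had 13.8, 14.2 and 14.3 CPM in sgCdk10 and 9.60, 8.43 and 9.38 CPM in sgControl (log2 fold change 0.62, SE 0.08; edgeR adjusted p = 1.5e-06). Zfp931, named after its values were seen, had 2.10, 4.04 and 3.27 CPM in sgCdk10 and 2.15, 1.36 and 1.71 CPM in sgControl, a rise of 0.85 (SE 0.23; edgeR adjusted p = 0.00549; range over the alternatives 0.000274 to 0.0521). Its groups overlapped, and the call was lost without sgCdk10 replicate 2 (0.0521). Of the 75-base stretches of Zfp971 21.3% occur in Gm14288 or another gene, so reads may be divided between such copies.

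Promoter windows of RefSeq on GRCm38.p6, each of 300 bases, were matched by symbol for 228 of the 276 members, in 280 windows. The windows of the chromosome 8 run and of Zfp971 and Zfp931 are shown because these neighbours had log2 fold changes of the same sign, although Zfp963 was not called and Zfp931 had overlapping groups. No window is shown for Zfp972, whose sign differed from that of Zfp971 and Zfp931. Capitals mark matches on either strand to the CCAAT box CCAATCA, to ATGGCGG, the core of a YY1 site, or to the AP-1 site TGANTCA. The windows are chr8:69625499-69625798 for Zfp868, chr8:69716853-69717152 for Zfp869, chr8:69749913-69750212 for Zfp963 and chr8:69774862-69775161 for Zfp866, all on the minus strand. Those of chromosome 2 are chr2:178023034-178023333 on the plus strand for Zfp971 and chr2:178078376-178078675 on the minus strand for Zfp931. A further window of Zfp868, chr8:69625126-69625425, is not shown; it holds neither a CCAAT box nor the YY1 core.
Zfp868: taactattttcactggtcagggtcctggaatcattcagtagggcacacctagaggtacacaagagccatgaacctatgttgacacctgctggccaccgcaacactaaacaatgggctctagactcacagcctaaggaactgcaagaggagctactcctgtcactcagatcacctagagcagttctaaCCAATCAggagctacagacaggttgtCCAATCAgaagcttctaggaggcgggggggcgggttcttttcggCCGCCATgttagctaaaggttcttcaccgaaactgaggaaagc
Zfp869: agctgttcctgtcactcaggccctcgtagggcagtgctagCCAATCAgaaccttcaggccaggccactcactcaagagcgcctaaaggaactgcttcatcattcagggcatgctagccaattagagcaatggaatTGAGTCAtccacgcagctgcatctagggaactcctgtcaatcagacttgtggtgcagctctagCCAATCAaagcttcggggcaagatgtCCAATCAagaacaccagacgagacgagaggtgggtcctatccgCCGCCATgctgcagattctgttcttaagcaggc
Zfp963: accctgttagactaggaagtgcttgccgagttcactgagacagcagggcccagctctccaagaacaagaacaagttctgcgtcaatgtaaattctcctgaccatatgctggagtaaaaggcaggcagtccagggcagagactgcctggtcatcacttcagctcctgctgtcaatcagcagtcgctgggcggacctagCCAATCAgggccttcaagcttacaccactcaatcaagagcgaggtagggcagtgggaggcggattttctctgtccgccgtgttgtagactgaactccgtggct
Zfp866: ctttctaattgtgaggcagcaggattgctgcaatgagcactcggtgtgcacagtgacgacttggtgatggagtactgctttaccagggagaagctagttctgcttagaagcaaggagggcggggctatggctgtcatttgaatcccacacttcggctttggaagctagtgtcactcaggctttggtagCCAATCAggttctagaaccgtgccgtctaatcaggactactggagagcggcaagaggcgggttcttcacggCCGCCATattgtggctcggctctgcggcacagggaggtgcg
Zfp971: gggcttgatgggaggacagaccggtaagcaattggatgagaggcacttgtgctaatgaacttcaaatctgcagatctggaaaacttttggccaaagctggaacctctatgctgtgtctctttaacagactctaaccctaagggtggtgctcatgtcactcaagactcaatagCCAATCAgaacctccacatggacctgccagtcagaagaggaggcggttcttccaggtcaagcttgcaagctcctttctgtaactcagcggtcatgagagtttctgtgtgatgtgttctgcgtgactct
Zfp931: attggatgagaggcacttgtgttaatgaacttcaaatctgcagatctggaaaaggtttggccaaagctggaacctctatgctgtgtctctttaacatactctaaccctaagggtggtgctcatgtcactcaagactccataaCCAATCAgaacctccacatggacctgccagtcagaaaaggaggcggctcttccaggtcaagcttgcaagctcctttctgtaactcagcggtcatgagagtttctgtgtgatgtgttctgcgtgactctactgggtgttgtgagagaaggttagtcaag

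The windows of Zfp971 and Zfp931 were identical at 79.4% of aligned positions, and those shown from chromosome 8 at 50.7 to 56.9%. The further window of Zfp868 was identical to the other chromosome 8 windows at 45.4 to 48.3%, within the range of 42.9 to 50% between windows of different chromosomes. Each of the 6 windows shown holds at least 1 CCAAT box, and those of Zfp868, Zfp869 and Zfp866, but not of Zfp963, hold the YY1 core. The letters CCAATCA and ATGGCGG were chosen after these windows had been seen, and all 6 windows shown belong to KRAB members. The shares below include these windows, so a higher share among members, or among KRAB members, is in part built in by that choice. CCAATCA occurs in 30.8% of the windows of KRAB members, in 7.41% of those of members without the box and in 7.82% of all 32851 windows. Among members called higher 14.3% of windows held it, among those called lower 13.6%, and among those not called 26.6%. The windows that gave the letters were shown for the sign of their genes' change, so nothing is read from this split. ATGGCGG occurs in 11.1% of the members' windows, which include those it was chosen from, and in 4.05% of all windows. Since its letters were chosen from windows of genes that fell, its shares by direction are not given.

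The core of ETS factor sites, CGGAAG, occurs in 37.5% of the members' windows and in 16.9% of all windows. A factor of this family, ETS2, is a known substrate of the kinase that Cdk10 encodes. The share was 31.7% among members called higher, 31.8% among those called lower and 41.0% among those not called. The YY1 site AAGATGGC, which overlaps the YY1 core by its last letters, was found in 5.71% of the members' windows and 2.75% of all, the cAMP response element TGACGTCA in 4.29 and 1.79%, and the AP-1 site in 4.29 and 7.81%. A match is a description of letters and shows no binding.

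GC content went with the direction of change only weakly. Members under 40% GC were higher in 16 cases of 68 and lower in 3, with a median log2 fold change of 0.10; of 886 tested genes in that range 179 were higher and 134 lower. Members of at least 50% GC were higher in 12 cases of 76 and lower in 11, with a median of -0.02; of 6156 tested genes in that range 1499 were higher and 1273 lower. With the GC and length correction 10 of these 76 were higher and 27 lower, and 1270 and 1569 of the 6156. Across the 276 members Spearman's rho between log2 fold change and GC content was -0.17, against 0.03 across 13242 tested genes, both without the correction. With the correction it was -0.26 across the members, and it was not computed across all tested genes. Genes are not independent replicates, and GC content, level and the KRAB box go together in this family, so their parts cannot be told apart here.

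**Figure D5:**
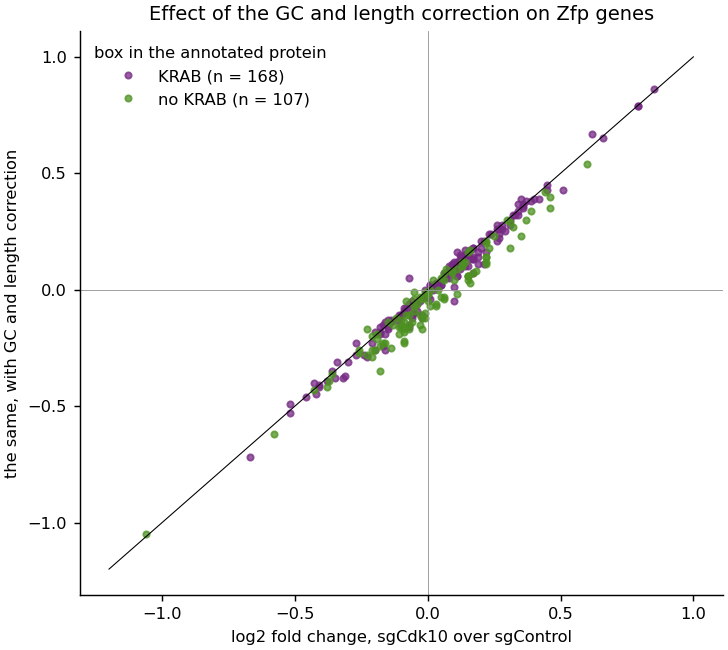
Log2 fold change, sgCdk10 over sgControl, of each Zfp gene without (horizontal axis) and with (vertical axis) the GC and length correction, for 168 KRAB members and 107 without the box; the line marks equality. The points lie near the line, with the members without the box mostly under it: their median is -0.04 with the correction and -0.01 without it.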

How the data were processed

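The authors deposited raw counts per gene for 6 libraries, which were grouped by the library titles. The submitters' processing notes list mm10, DESeq2 1.40.2, featureCounts 2.0.3 and HISAT2 2.2.1, with no setting; strand and annotation release were not given in the sources used here. Symbols, exons and coding transcripts came from GENCODE M21 on GRCm38. Of the members, 67 overlap exons of another gene on the opposite strand, 26 on the same strand, and 21 share over 20% of their 75-base stretches with other genes, so their reads may be divided. The labels do not say whether a group's libraries are separate cultures; p-values then measure only the spread between these libraries, possibly technical.

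Genes were kept by filterByExpr (minimum count 10, minimum total 15) and tested on the whole table by edgeR's quasi-likelihood test (version 4.0.16) with TMM scaling, robust dispersions and Benjamini-Hochberg adjustment at 0.05 over 13442 genes, after the test was tested on simulated data. CPM per library are TMM-adjusted; the floor of 1 CPM used plain totals. Positive log2 fold changes mean higher in sgCdk10. KRAB, SCAN and BTB domains were called with pyhmmer 0.12.3, fingers by pattern. Alternatives were DESeq2 1.42.0, limma-voom (limma 3.58.1), other size factors and filters, non-robust dispersions, a replicate block, loess correction for GC and length (span 0.5), other floors and each library left out.

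Members and lists were chosen with earlier results of these data known. Named were the 12 largest rises and falls among called members whose groups do not overlap, the 5 smallest p in each direction, the 5 highest levels, those nearest the floor, called members of the role lists, Cdk10, and the 4 smallest p among partners and each related family. Members named for a run of neighbours were chosen after their values were seen.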

Additional observations from a re-analysis of the deposited data

How the results depend on the processing

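The Zfp genes called were fewer with DESeq2, at 35 higher and 26 lower, and among KRAB members at 16 higher and 12 lower. The median log2 fold change of the members, 0.05, was 0.02 with the GC and length correction, 0.02 with that correction and the replicate block, and 0.03 among members of at least 5 CPM; with 1 library left out it was 0.02 to 0.06. Under the GC and length correction the members without KRAB called lower numbered 35 and the partners called lower 16, and with the block added 32 and 17; the cause was not tested. With 1 library left out the members called higher numbered 43 to 67, those called lower 33 to 44, KRAB members called higher 21 to 41 and all genes called 4791 to 6056. Cdk10 had -0.90 to -0.75 under these. The balance of higher and lower calls turned with the GC and length correction, to 49 higher and 60 lower members, 20 and 35 without KRAB and 11 and 16 partners. That of all tested genes turned too, from 2970 higher and 2747 lower to 2665 and 3222. Of the 98 called members 0 were called in the other direction in any alternative fit. Of the 53 calls that the rule for named members picked, 43 were kept with DESeq2, 50 with the GC and length correction, 49 with that and the block, 52 with limma-voom and 48 to 51 with 1 library left out.

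With the replicate number as a block 56 members were higher and 34 lower, 5481 genes were called in all and these 53 calls were kept, while Zfp212, named for its run, was not called (adjusted p = 0.0609). Same-numbered libraries correlated in their deviations at 0.03, -0.06 and -0.10, so no pairing by number was seen in these values. Whether libraries of the same number share a culture or a preparation is not stated in the labels, and these correlations cannot decide it. Of 47 members under 5 CPM 8 were called, and depth is least there.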
